A study of Equus caballus with 20 samples.

Results

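Oviduct epithelium on the side of ovulation was compared with that of the other side in cyclic mares, the 10 libraries of cyclic animals among the 20 of the study. Cyclic ipsilateral libraries (CI, 5 biological replicates) come from the tube next to the ovary that had ovulated, and cyclic contralateral libraries (CC, also 5) from the opposite tube. All are from epithelial cells of Warmblood mares, taken 4 days after ovulation at the ampullary-isthmic junction, where the wide upper segment of the tube narrows towards the uterus. The other 10 libraries are from pregnant mares, 5 ipsilateral (PI) and 5 contralateral (PC), at the same day, tissue and breed. They share the estimate of spread here, and their side difference is set beside that of cyclic mares at the end. The file lists 26740 features, and 14692 of them, above 1 CPM, the reads of a feature scaled to its library's total, in at least 5 of the 20 libraries, were compared. The sources used here do not give the ages of the mares, how the cells were taken, whether the ovulation was left or right, or whether CI and CC libraries of the same number come from 1 mare.

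The oviduct receives the ovulated oocyte, supports fertilization and the early embryo, and passes the embryo to the uterus. Its epithelium holds multiciliated cells, whose beating moves fluid and oocytes, and secretory cells, which make the luminal fluid, and both respond to estrogen and progesterone. In several species the tube next to the corpus luteum is exposed to higher local concentrations of ovarian hormones than the opposite tube, and in the mare unfertilized oocytes can stay in the tube while embryos pass on. Comparing both tubes of cyclic mares asks whether the epithelium next to the ovulating ovary differs from its counterpart when there is no embryo.

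Recovered totals were 3856941 to 10126484 reads in CI and 3407805 to 9849146 in CC. A count of 0 allows up to 3 reads, or 1.79 to 5.40 normalized counts by library. These floors cover counting error only. Epithelial genes marked every library. The ciliary dynein DNAH5 stood at 17423 to 23667 normalized counts in CI and 17179.7 to 27449.9 in CC, and EPCAM, an epithelial adhesion molecule, at 1154 to 2382 and 1444 to 2413. PAX8, a transcription factor of oviduct secretory cells, stood at 1560.1 to 2491 and 1410.2 to 2149, whereas the oviductal glycoprotein gene OVGP1 was near the floor on both sides (1.19 to 9.0 and 0 to 11.7). By mean level the most abundant feature was ENSECAG00000014226, listed without a symbol, though the mitochondrial transcript MT-CO1 was above it in CC3, CC4 and CC5. ENSECAG00000014226 took 2.22% to 15.4% of CI reads and 0.310% to 5.95% of CC reads. Library CI3 had the highest share of it and of mitochondrial reads (8.62%, against 1.27% to 5.31% in the other 9 cyclic libraries). CI3 and CC4 also had the fewest reads of their groups.

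No feature passed the test of side. With limma and Benjamini-Hochberg adjustment at 0.05, 0 of 14692 features (0%) were called, and the lowest adjusted p was 0.999954. Without adjustment, 26 features (0.177%) had a limma p under 0.05 with a higher level in CI and 16 (0.109%) with a lower level, 42 in all (0.286%), against 735 in all that a nominal rate of 5% would give. The count tests run on the recovered reads called 0 as well, with 26 and 24 features under an unadjusted 0.05 by edgeR and 28 and 27 by DESeq2. The total of 42 was 224 without CC4, 116 without CC5, 95 without CI2, 76 without CI4 and 70 without CC2, and 28 without CC1, with 0 adjusted calls each time.

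The differences were small for most genes. On the log2(normalized counts + 3.03) scale, on which all differences are given as CI minus CC ± standard error (SE), the median absolute difference was 0.10 and 95% of features lay under 0.45. Differences over 1.5-fold were seen in 321 features (2.18%) and over 2-fold in 13 (0.0885%). The 95% interval lay within 2-fold either way for 11572 features (78.8%) and within 1.5-fold for 6408 (43.6%). On this scale a 2-fold side difference thus lies outside the interval of most features, whereas a 1.5-fold difference does not for most. The added 3.03 makes folds of low features look smaller, so for those a 2-fold difference in the counts themselves is not excluded. Differences were positive for 51.4% of features (median 0.005), and for 32.8% (median -0.066) when libraries were scaled to their totals without the TMM factor.

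Side did not order the libraries either. Across the 14692 features, the correlation between libraries had a median of 0.953 over the 20 pairs of the same side (0.897 to 0.976) and of 0.954 over the 25 pairs of opposite sides (0.904 to 0.984). These are correlations across genes, which are not independent replicates, and they are a description only. The highest opposite-side values were of same-numbered libraries, CI5 with CC5 (0.984) and CI2 with CC2 (0.983). If such libraries come from 1 mare, they could raise the opposite-side values, which was not tested. Library CC4 had the lowest mean correlation with its own side (0.924), followed by CI3 (0.936).

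**Figure D1:**
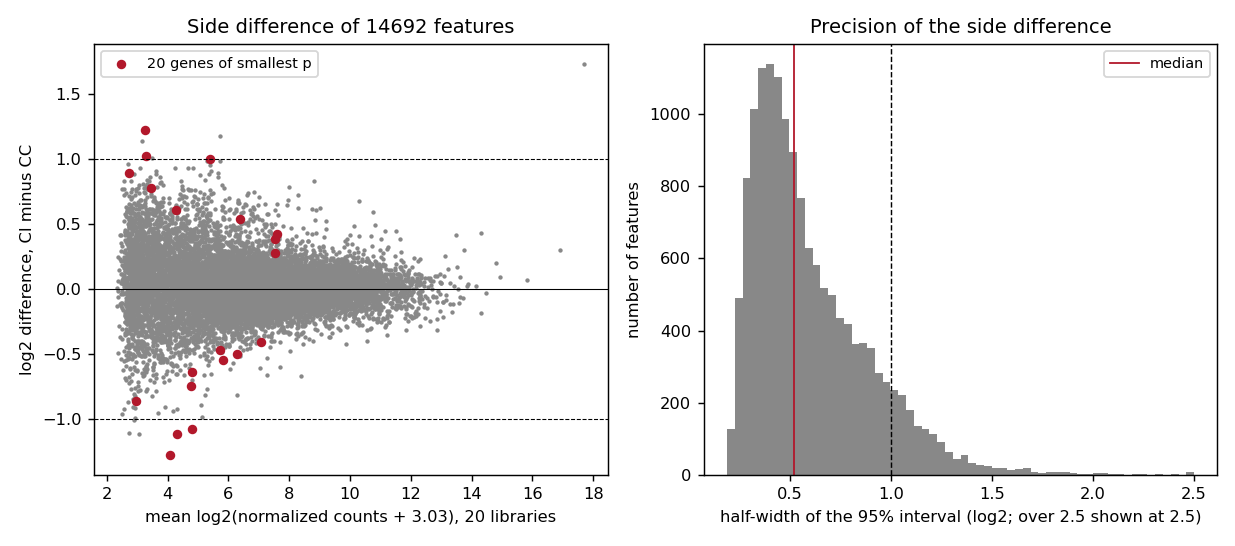
Left, the side difference of each of 14692 features (log2, CI minus CC) against its mean log2 level over 20 libraries, with dashed lines at 2-fold and the 20 genes of smallest p in red. Right, the number of features by the distance from the estimate to the end of its 95% interval (log2), with the median of 0.52 as a red line and 2-fold as a dashed line. Only 13 features lie beyond 2-fold, and most intervals reach less than 2-fold from their estimate.

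Among the 10 genes of smallest p with a higher level in CI, 1 of 10 had no overlap between sides, and differences ran from 0.28 to 1.22. None passed, with adjusted p of 0.999954 each by limma. JPH1, junctophilin-1, which ties the endoplasmic reticulum to the plasma membrane, stood at 100.4, 76.9, 140.5, 98.4 and 104 normalized counts in CI1 to CI5 and at 87, 51.9, 76.8, 66.8 and 70.1 in CC1 to CC5. Every CI library but CI2 lay above all CC libraries, and the difference was 0.54 ± 0.18. ZNF34, a zinc finger protein, stood at 20.3, 20.3, 30.6, 17.6 and 19.3 normalized counts in CI1 to CI5 and at 14.5, 16.5, 13.4, 13.4 and 8.05 in CC1 to CC5. Its sides did not overlap, with CI3 far above the rest, and the difference was 0.61 ± 0.26.

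E2F2, a transcription factor that drives genes of DNA replication, stood at 17.4, 8.35, 12.6, 2.4 and 17.1 normalized counts in CI1 to CI5 and at 1.32, 2.44, 3.84, 1.67 and 4.6 in CC1 to CC5. CI4 alone fell among the CC values, and the CC values rest on 1 to 4 reads. The difference was 1.22 ± 0.49, the highest of any feature with a symbol. It was 0.63 with a pseudocount of 2 CPM, 1.98 by edgeR and 2.03 by DESeq2. WDR62, a spindle pole protein, stood at 49.2, 37, 73.8, 30.4 and 63.2 normalized counts in CI1 to CI5 and at 10.5, 29.3, 29.7, 20 and 31 in CC1 to CC5. Here too every CI library except CI4 was above all CC libraries, CC1 was the lowest, and the difference was 1.00 ± 0.40. CCNY, cyclin Y, a membrane-bound cyclin, differed by only 0.28 ± 0.12, from 174 to 219 normalized counts in CI and 143 to 180.4 in CC, with CI1 and CI3 below CC2 and CC5.

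CYP11A1, the mitochondrial enzyme that starts steroid synthesis from cholesterol, stood at 6.76, 4.77, 18, 4.8 and 13.9 normalized counts in CI1 to CI5 and at 0, 2.44, 2.88, 6.68 and 3.45 in CC1 to CC5. CI3 and CI5 were highest, CC1 had 0 reads, and the difference was 1.02 ± 0.43, with 0.49 at a pseudocount of 2 CPM, 1.61 by edgeR and 1.65 by DESeq2. TNFRSF4, the costimulatory receptor OX40 of activated T cells, stood at 12.6, 2.98, 5.4, 1.6 and 7.5 normalized counts in CI1 to CI5 and at 2.64, 1.83, 0.96, 0 and 2.3 in CC1 to CC5. CI1 was the highest, with 13 reads, and CC libraries held 0 to 3 reads. The difference was 0.89 ± 0.36, with 0.38 at a pseudocount of 2 CPM, 1.82 by edgeR and 1.88 by DESeq2. 

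The remaining 3 overlapped between sides. CIR1, a corepressor that acts with RBPJ in Notch signalling, stood at 232, 213, 151, 219 and 264 normalized counts in CI1 to CI5 and at 137, 143, 155, 170.3 and 218 in CC1 to CC5. CI3 fell among the low CC libraries, CC5 among the CI ones, and the difference was 0.38 ± 0.16. CCDC96, a coiled-coil protein of cilia, stood at 145, 184, 148, 219 and 195 normalized counts in CI1 to CI5 and at 80.4, 143, 131, 134 and 187 in CC1 to CC5. Every CC library but CC5 was below all CI libraries, and the difference was 0.42 ± 0.18, or 0.25 without CC1. GPRIN1, a G protein-regulated inducer of neurite outgrowth, stood at 14.5, 7.15, 10.8, 15.2 and 15 normalized counts in CI1 to CI5 and at 2.64, 5.49, 8.64, 5.01 and 9.19 in CC1 to CC5. CI2 alone reached the CC range, and the difference was 0.77 ± 0.33, or 0.43 with a pseudocount of 2 CPM.

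Among the 10 genes of smallest p with a lower level in CI, 2 of 10 had no overlap, and differences ran from -0.41 to -1.28. OPRL1, the nociceptin receptor, stood at 43.5, 42.3, 37.8, 44 and 37.5 normalized counts in CI1 to CI5 and at 64.6, 70.2, 51.8, 58.4 and 47.1 in CC1 to CC5. All CI libraries lay below all CC libraries, with a difference of -0.47 ± 0.17 (adjusted p = 0.999954 by limma). TMEM167A, a small membrane protein of the secretory pathway, stood at 14.5, 23.8, 21.6, 19.2 and 21.4 normalized counts in CI1 to CI5 and at 35.6, 39.7, 25.9, 40.1 and 25.3 in CC1 to CC5, again without overlap, and differed by -0.64 ± 0.27. WNT2B, a secreted WNT ligand, had the smallest p of this direction and stood at 54.1, 37.6, 34.2, 39.2 and 47.1 normalized counts in CI1 to CI5 and at 83, 56.1, 80.6, 50.1 and 50.6 in CC1 to CC5. Only CI1 reached the CC range, and the difference was -0.55 ± 0.19.

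FLT4, the VEGF receptor of lymphatic endothelium, stood at 1.93, 6.56, 3.6, 19.2 and 17.1 normalized counts in CI1 to CI5 and at 32.9, 20.7, 31.7, 16.7 and 17.2 in CC1 to CC5. CI1, CI2 and CI3 lay below all CC libraries while CI4 and CI5 lay among them, and the difference was -1.28 ± 0.48, or -0.77 with a pseudocount of 2 CPM. IGFBP3, which carries and restrains insulin-like growth factors, stood at 24.1, 15.5, 14.4, 22.4 and 13.9 normalized counts in CI1 to CI5 and at 73.8, 59.8, 81.6, 21.7 and 12.6 in CC1 to CC5. Its 3 highest CC libraries were far above CI, but CC4 and CC5 were not, and the difference was -1.08 ± 0.41. F8, coagulation factor VIII, which endothelial cells make, stood at 11.6, 23.2, 21.6, 28 and 21.4 normalized counts in CI1 to CI5 and at 50.1, 36, 56.6, 25 and 24.1 in CC1 to CC5. CC1, CC2 and CC3 were again the high libraries, and the difference was -0.74 ± 0.32.

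KAL1, which encodes the matrix protein anosmin-1, stood at 9.66, 19.1, 5.4, 6.4 and 11.8 normalized counts in CI1 to CI5 and at 35.6, 27.5, 25, 25 and 13.8 in CC1 to CC5. CC5 was the only CC library within the CI range, and the difference was -1.11 ± 0.43, or -0.73 with a pseudocount of 2 CPM. ZNF558, a zinc finger protein, stood at 67.6, 81.1, 36, 68.8 and 65.4 normalized counts in CI1 to CI5 and at 81.7, 78.7, 86.4, 98.5 and 100 in CC1 to CC5. CI3 was the lowest, and the difference was -0.50 ± 0.19, or -0.32 without CI3. HOMEZ, a homeodomain gene, stood at 117, 156, 115, 90.4 and 116 normalized counts in CI1 to CI5 and at 207, 162, 180.4, 129 and 121 in CC1 to CC5. CI2 alone was above any CC library, and the difference was -0.41 ± 0.16. PLCXD3, a phospholipase C-like protein, stood at 0.966, 7.15, 0, 2.4 and 1.07 normalized counts in CI1 to CI5 and at 3.95, 5.49, 4.8, 5.01 and 11.5 in CC1 to CC5, which is 0 to 12 reads per cyclic library. CI2 was the one CI library within the CC range, and the difference was -0.86 ± 0.37, or -0.34 with a pseudocount of 2 CPM.

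**Figure D2:**
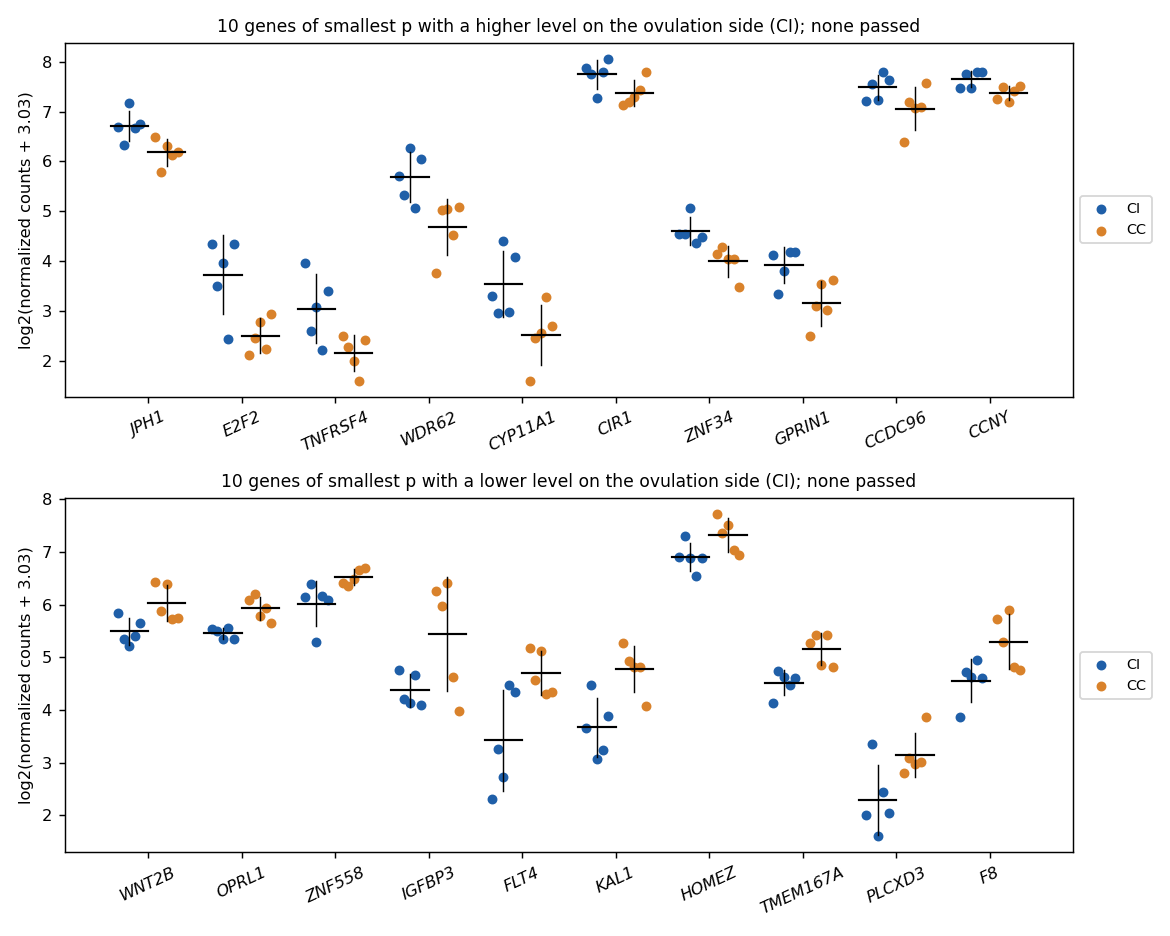
Each point is 1 library (log2 of normalized counts + 3.03, CI blue, CC orange, replicates 1 to 5 from left to right), with the group mean as a horizontal bar and 1 SD as a vertical line. The upper panel holds the 10 genes of smallest p with a higher level in CI and the lower panel the 10 with a lower level. Points of both sides overlap in all but ZNF34, OPRL1 and TMEM167A, and no gene passed the adjusted threshold.

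Over all features, every CI library lay above every CC library in 4 (0.0272%) and below in 6 (0.0408%). The 4 were ZNF34, NKG7, a granule protein of NK and T cells, ING3, a chromatin reader, and RCC1, the chromatin-bound exchange factor for Ran. ING3 stood at 85, 80.5, 90, 80.8 and 86.8 normalized counts in CI1 to CI5 and at 67.2, 69.6, 60.5, 76.8 and 79.3 in CC1 to CC5, a narrow gap with a difference of 0.26 ± 0.15. The 6 were OPRL1, TMEM167A, GPR161, a ciliary receptor that restrains Hedgehog signalling, PPIL3, a cyclophilin-like protein, CCR1, a chemokine receptor, and RPL7_2, a copy of a ribosomal protein gene whose reads the counting could have shared with other copies. GPR161 stood at 8.69, 6.56, 5.4, 8.0 and 8.57 normalized counts in CI1 to CI5 and at 15.8, 15.9, 14.4, 10 and 13.8 in CC1 to CC5, and its difference was -0.70 ± 0.39. CCR1 stood at 16.4, 16.1, 10.8, 17.6 and 15 normalized counts in CI1 to CI5 and at 18.4, 23.2, 24, 18.4 and 24.1 in CC1 to CC5, with a difference of -0.44 ± 0.26. RCC1 stood at 73.4, 69.2, 81, 66.4 and 73.9 normalized counts in CI1 to CI5 and at 65.9, 65.9, 64.3, 28.4 and 54 in CC1 to CC5, where CC4 was far lower than the others, and differed by 0.42 ± 0.31. These genes were named after their values were seen, and none had an adjusted limma p under 0.999954.

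The feature with the widest difference was ENSECAG00000014226, at 1.73 ± 1.00 (adjusted p = 0.999954 by limma). It stood at 463715, 269738, 1071650.0, 128846 and 197673 normalized counts in CI1 to CI5 and at 354841, 143325, 80349, 122604 and 16955 in CC1 to CC5. CI3 was the highest and CC5 the lowest, and CC1 lay above CI2, CI4 and CI5. KRT17, a keratin of basal and stressed epithelium, stood at 3.86, 1.79, 1.8, 0 and 6.43 normalized counts in CI1 to CI5 and at 6.59, 3.66, 1.92, 0 and 219.5 in CC1 to CC5. CC5 was far above the other 9 libraries, and the difference was -1.11 ± 0.88. KRT5, a keratin of basal cells, was also highest in CC5, at 80.5 normalized counts against 14.4 to 20 in CI. It stood at 22.4, 33.6, 16.3 and 11.7 in CC1 to CC4, so CC1 and CC2 were above every CI library too.

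The gene lists that follow held 0 adjusted calls, and their counts of positive differences are read beside 51.4% over all features. Of the 35 lists with at least 5 members kept, 27 had a median that changed sign without some single library, so each such median is given with the values that turned. Receptors and enzymes for ovarian steroids came first. Of 20 steroid receptors and partners kept, 12 had a positive difference (median 0.019, -0.017 without CI1), and 0 passed. ESR1, estrogen receptor alpha, stood at 2437, 2684, 2284, 2562 and 2269.5 normalized counts in CI1 to CI5 and at 3224, 3481, 3651, 1418 and 1919 in CC1 to CC5. CC1, CC2 and CC3 were highest and CC4 lowest of all 10, so the CC spread enclosed CI, and the difference was -0.072 ± 0.24. ESR2, estrogen receptor beta, differed by 0.022 ± 0.39, and NR3C1, the glucocorticoid receptor and the member of smallest p, by -0.18 ± 0.13, at 492 to 677 normalized counts in CI and 598 to 663 in CC. GREB1, an estrogen-induced gene, differed by -0.32 ± 0.51 and HAND2, a progesterone-induced factor of uterine stroma, by 0.49 ± 0.40. PGR, the progesterone receptor, was not matched by name and was not analysed here.

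Of the steroid-metabolising enzymes, 6 of 19 had a positive difference (median -0.033, 0.10 without CI3, 0.024 without CI5 and 0.08 without CC2), CYP11A1 among them. 11-HSD2, which inactivates cortisol, stood at 19.3, 15.5, 3.6, 13.6 and 8.57 normalized counts in CI1 to CI5 and at 27.7, 25, 28.8, 8.35 and 17.2 in CC1 to CC5. CC1, CC2 and CC3 were the highest libraries, and the difference was -0.72 ± 0.38. CYP19A1, the aromatase that makes estrogens, differed by 0.26 ± 0.73 with CC1 at 2.64 and the other CC libraries at 11.5 to 69.1, and STAR, which carries cholesterol into mitochondria, by -0.0013 ± 0.33. Transcripts of the enzymes HSD3B (0 to 3 reads), HSD17B2 (0) and HSD11B1 (0 to 2) were at or near 0 in all cyclic libraries.

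The prostaglandin list covers synthesis, receptors and breakdown, since prostaglandin E2 relaxes the tube and is the embryo's signal for transport in the mare. 3 of 14 members had a positive difference (median -0.10), and the median was -0.035 with 6 of 14 positive without CI3, whose list score, the mean log2 level of the members, was the lowest. PTGES, a synthase of prostaglandin E2, stood at 8.69, 5.96, 10.8, 14.4 and 1.07 normalized counts in CI1 to CI5 and at 14.5, 18.3, 16.3, 11.7 and 2.3 in CC1 to CC5. CI5 and CC5 were both far below the others, and the difference was -0.49 ± 0.44. PTGS2, the inducible cyclooxygenase, was low on both sides (4.8 to 21.4 in CI and 3.84 to 39.1 in CC) and differed by -0.035 ± 0.46. PTGER2, a receptor for prostaglandin E2, stood at 158, 125, 112, 246 and 156 normalized counts in CI1 to CI5 and at 132, 114, 141, 144 and 145 in CC1 to CC5, with CI4 the highest and a difference of 0.19 ± 0.19. PTGS1, the constitutive cyclooxygenase, differed by -0.41 ± 0.31, and PTGFR, the prostaglandin F receptor, was below the filter with at most 11 reads in a cyclic library.

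Receptors that act on tubal contraction were split, with 6 of 12 positive (median -0.019, 0.074 without CC3). OXTR, the oxytocin receptor, stood at 279, 228, 294, 394 and 173 normalized counts in CI1 to CI5 and at 231, 384, 412, 250.5 and 129 in CC1 to CC5, overlapping throughout, with a difference of 0.021 ± 0.33. EDNRB, an endothelin receptor, differed by -0.87 ± 0.46 at 0 to 9 reads in CI and 3 to 19 in CC.

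Secretory and ciliated cell genes had small differences for most members. Oviduct secretory genes had 7 of 12 positive differences (median 0.024, -0.072 without CI1 and -0.037 without CC4). PAX8 stood at 2235, 1560.1, 2491, 2146 and 1725 normalized counts in CI1 to CI5 and at 1929, 1539, 1691, 2149 and 1410.2 in CC1 to CC5, with a difference of 0.22 ± 0.15, and CLU, the secreted chaperone clusterin, differed by 0.02 ± 0.31, with CC4 lowest at 6319 normalized counts. OVGP1 had a difference of 0.70 ± 0.42 at counts near the floor. Of 45 genes of cilium structure, 32 were positive, with a median of 0.049 (-0.01 without CI5 and -0.033 without CC2). Without the TMM factor 19 of 45 were positive (median -0.025), beside 32.8% over all features (median -0.066) in that setting. DNAH5 stood at 17545, 22177, 17423, 22172 and 23667 normalized counts in CI1 to CI5 and at 19524, 18023, 17179.7, 23808 and 27449.9 in CC1 to CC5 and differed by -0.03 ± 0.16. RSPH1, a radial spoke protein, had the smallest p of the list and differed by 0.25 ± 0.20.

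The regulators of multiciliated fate held a few members with wide differences, none of which passed. 11 of 19 were positive (median 0.021, -0.022 without CI5 and -0.0062 without CC2). FOXN4, a forkhead factor of cells that are forming cilia, stood at 56, 4.17, 27, 1.6 and 16.1 normalized counts in CI1 to CI5 and at 0, 1.83, 6.72, 6.68 and 20.7 in CC1 to CC5. CI1 and CI3 were above all CC libraries while CI4 was among the lowest, and the difference was 1.02 ± 0.64. CDC20B, which lies beside CCNO and the miR-449 microRNAs and acts in the release of new centrioles, stood at 69.5, 2.38, 3.6, 2.4 and 13.9 normalized counts in CI1 to CI5 and at 1.32, 0.61, 14.4, 1.67 and 11.5 in CC1 to CC5, where CI1 alone was above CC. FOXJ1, the factor that turns on motile cilium genes, stood at 3772, 3834, 3996, 3949.8 and 3929 normalized counts in CI1 to CI5 and at 4436, 4661, 4648, 2774 and 3586 in CC1 to CC5. CI values were within a narrow range inside the wider CC range, and the difference was -0.018 ± 0.18.

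Genes of fluid and nutrient supply were close to evenly split. Ion channels and fluid secretion had 15 of 28 positive differences (median 0.012, -0.03 without CI2, -0.069 without CI4, -0.072 without CC4 and -0.10 without CC5) and nutrient transporters 11 of 23 (median -0.007, 0.06 without CI3). CFTR, the chloride and bicarbonate channel of oviduct fluid, stood at 314, 337, 447, 535 and 496 normalized counts in CI1 to CI5 and at 358, 348, 535, 479 and 387 in CC1 to CC5, with a difference of 0.0039 ± 0.20 and a 95% interval of -0.41 to 0.41. KCNMA1, a potassium channel, had the smallest p of its list, at 175 to 277 in CI and 237 to 385 in CC, and differed by -0.33 ± 0.19. SLC15A2, a peptide transporter, differed by -0.37 ± 0.27, with CC1, CC2 and CC3 above every CI library.

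Growth factors that act on the early embryo had 10 of 31 positive differences (median -0.049, 0.017 without CC2 and 0.027 without CC3). IGF1 stood at 23.2, 28.6, 54, 37.6 and 21.4 normalized counts in CI1 to CI5 and at 26.4, 54.3, 81.6, 26.7 and 9.19 in CC1 to CC5, with CC3 highest and CC5 lowest and a difference of -0.028 ± 0.45. IGFBP6, which binds IGF2, stood at 581, 1003, 1097, 607 and 1874 normalized counts in CI1 to CI5 and at 244, 932, 1063, 291 and 2452 in CC1 to CC5. CI5 and CC5 were the highest of their sides, and the difference was 0.41 ± 0.49. FGF10 (-0.64 ± 0.44), BMP2 (-0.63 ± 0.48) and LIF (0.53 ± 0.44), a cytokine of implantation, were all under 30 normalized counts in every library.

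WNT and Notch genes, which set epithelial fate and patterning, had 9 of 38 positive differences (median -0.066), beside 51.4% over all features. The median was -0.015 with 17 of 38 positive without CC2, and -0.017 with 17 of 38 positive without CC3. WIF1, a secreted WNT inhibitor, stood at 2.9, 16.7, 3.6, 3.2 and 0 normalized counts in CI1 to CI5 and at 5.27, 70.8, 25, 3.34 and 1.15 in CC1 to CC5. CC2 and CC3 were above every CI library, and the difference was -0.99 ± 0.68. WNT5A, a ligand that acts largely outside the beta-catenin pathway, differed by -0.015 ± 0.22 and NOTCH2 by -0.20 ± 0.21.

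Among the immune lists, interferon-stimulated genes, the antiviral set that interferons turn on, had the highest median, with 38 of 41 positive and a median of 0.23, beside 0.005 over all features. No member passed or reached an unadjusted p under 0.05 by limma. The list scores were 8.23, 7.06, 7.39, 6.82 and 7.38 in CI1 to CI5 and 6.84, 7.05, 7.50, 6.78 and 7.68 in CC1 to CC5, so CI1 stood above all others and the rest overlapped. Without CI1 the median was 0.035 and 25 of 41 were positive. Without CC4 it was 0.11 and without CC1 0.15.

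Single members showed the same library. ISG15, a ubiquitin-like antiviral protein, stood at 86.9, 16.1, 27, 22.4 and 40.7 normalized counts in CI1 to CI5 and at 19.8, 36, 33.6, 13.4 and 42.5 in CC1 to CC5 and differed by 0.25 ± 0.81. GBP5, a guanylate-binding protein, stood at 338, 68, 189, 36.8 and 118 normalized counts in CI1 to CI5 and at 46.1, 29.3, 164, 83.5 and 177 in CC1 to CC5, where CI1 and CI3 were above all CC libraries, and IRF7, a factor that amplifies interferon responses, stood at 499, 73.9, 166, 59.2 and 110.4 normalized counts in CI1 to CI5 and at 94.9, 100.1, 155, 45.1 and 109 in CC1 to CC5. CXCL10, a chemokine that draws T cells, stood at 275, 90.6, 18, 22.4 and 39.6 normalized counts in CI1 to CI5 and at 5.27, 8.54, 43.2, 20 and 95.4 in CC1 to CC5. CI1 was by far the highest, CC5 was the second highest, and the difference was 1.18 ± 0.81. CXCL9 (0.83 ± 0.75) and CXCL11 (0.96 ± 0.73), which bind the same receptor, were likewise highest in CI1, at 144 and 45.4 normalized counts. Over all cytokines and chemokines, 16 of 24 were positive (median 0.054, -0.10 without CI1 and -0.014 without CC4).

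CI1 also stood out for antigen presentation. CD74, which escorts MHC class II molecules to their peptides, stood at 58488, 19269, 19400.0, 18598 and 18043 normalized counts in CI1 to CI5 and at 20520.0, 17222, 21923, 18343 and 25994 in CC1 to CC5. The 9 libraries other than CI1 overlapped, and the difference was 0.20 ± 0.35. B2M, the light chain of MHC class I, stood at 18019, 5853, 3400.2, 6469 and 5626 normalized counts in CI1 to CI5 and at 4015, 4814, 10163, 5957 and 7847 in CC1 to CC5, and NLRC5, the activator of MHC class I genes, stood at 847, 120.4, 1055, 113 and 169 normalized counts in CI1 to CI5 and at 126, 99.5, 412, 187 and 243 in CC1 to CC5. CI1 and CI3 were both high for NLRC5 but only CI1 for B2M, and the differences were 0.62 ± 0.70 and 0.10 ± 0.56. MHC class I genes had 9 of 15 positive differences (median 0.04), and 4 of 15 without CI1, where the median turned to -0.18 (also -0.15 without CC4). MHC class II genes had 10 of 15 positive (median 0.058, -0.11 without CI1 and -0.059 without CC4), and complement and its regulators 11 of 15 (median 0.078, -0.046 without CI1 and -0.036 without CC4). Pattern recognition genes had 16 of 28 positive (median 0.029, -0.043 without CI1 and -0.021 without CC1) and mucosal defence 6 of 9 (median 0.031, -0.14 without CI1 and -0.047 without CC3). LTF, the iron-binding defence protein lactoferrin, stood at 941, 546, 484, 502 and 708 normalized counts in CI1 to CI5 and at 163, 678, 833, 165 and 687 in CC1 to CC5, with CC1 and CC4 below all other libraries and a difference of 0.61 ± 0.50.

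Of the leukocyte list scores, those of T and NK cells (5.48) and of B and plasma cells (5.22) were highest in CI1. That of macrophages and dendritic cells was highest in CC2 (6.63, against 6.48 in CI1). T and NK cell markers had 15 of 20 positive differences and a median of 0.11, and 5 of 20 with a median of -0.22 without CI1. Summed over the list, levels were 465 to 1209 normalized counts in CI and 436 to 907 in CC, with CI1 highest, and KLRD1 was at 0 to 1 reads. PTPRC, the leukocyte antigen CD45, stood at 498, 252, 101, 122 and 154 normalized counts in CI1 to CI5 and at 125, 164, 187, 172 and 259.8 in CC1 to CC5, again highest in CI1. NKG7 stood at 13.5, 5.37, 7.2, 4.8 and 4.29 normalized counts in CI1 to CI5 and at 1.32, 4.27, 2.88, 1.67 and 3.45 in CC1 to CC5 and did not overlap between sides, at 4 to 14 reads in CI and 1 to 7 in CC. B and plasma cell markers had 5 of 7 positive differences (median 0.12), with MS4A1 at 0, and macrophage and dendritic cell markers 7 of 12 (median 0.068, -0.10 without CI1, -0.016 without CC1 and -0.10 without CC4). In such bulk samples, fewer cells of a type and less RNA per cell cannot be told apart. The part of leukocytes in the interferon and MHC values was not tested.

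Genes of proliferating cells had the highest median of all 38 lists. 30 of 33 were positive (median 0.52), and 0 passed or had an unadjusted limma p under 0.05. The list scores were 6.69, 7.09, 6.33, 6.10 and 7.09 in CI1 to CI5 and 5.34, 6.51, 6.42, 6.47 and 6.64 in CC1 to CC5. CC1 was far below the other 9 libraries, CI1, CI2 and CI5 were above all CC libraries, and CI3 and CI4 were below all CC libraries but CC1. Without CC1 the median was 0.16, and 29 of 33 were positive.

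CENPF, a kinetochore protein, was the member of smallest p and stood at 469, 742, 501, 242 and 656 normalized counts in CI1 to CI5 and at 72.5, 325, 308, 524 and 394 in CC1 to CC5, with a difference of 0.83 ± 0.57. TOP2A, the topoisomerase of dividing cells, stood at 356, 509, 258, 158 and 498 normalized counts in CI1 to CI5 and at 64.6, 216, 251, 259 and 318 in CC1 to CC5, and the difference of 0.72 ± 0.60 again has CC1 as the lowest value. AURKB (0.76 ± 0.61) and BUB1 (0.68), kinases of mitosis, and CDK1 (0.54 ± 0.52) were of similar size. Differences of the 6 subunits of the replicative helicase were smaller, from MCM2 at 0.029 to MCM4 at 0.21, with MCM7 standing at 576, 646, 468, 586 and 496 normalized counts in CI1 to CI5 and at 618, 736, 518, 397 and 442 in CC1 to CC5. CC1 was not low for MCM7. MKI67 was not matched by name and was not analysed here.

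Markers of endothelium had 0 of 15 positive differences (median -0.30), with 0 passing and 1, PECAM1, under an unadjusted limma p of 0.05. PECAM1, the endothelial adhesion molecule CD31, stood at 16.4, 35.2, 5.4, 34.4 and 22.5 normalized counts in CI1 to CI5 and at 54, 55.5, 89.2, 23.4 and 19.5 in CC1 to CC5, and the difference was -0.99 ± 0.46. CC1, CC2 and CC3 were above all CI libraries, while CC4 and CC5 were within them. FLT1, a VEGF receptor, stood at 5.79, 17.9, 7.2, 12 and 13.9 normalized counts in CI1 to CI5 and at 27.7, 16.5, 51.8, 20 and 12.6 in CC1 to CC5 with CC3 and CC1 highest and a difference of -0.92 ± 0.45. VWF, von Willebrand factor, stood at 466, 166, 812, 194 and 313 normalized counts in CI1 to CI5 and at 831, 279, 858, 220.4 and 349 in CC1 to CC5, where CI3 was close to CC1 and CC3. List scores were 4.16, 4.73, 4.36, 4.78 and 4.64 in CI1 to CI5 and 5.07, 5.01, 5.44, 4.49 and 4.48 in CC1 to CC5, and without CC3 the median was -0.15 with 3 of 15 positive. The summed level of the list was 573 to 1048 normalized counts in CI and 531 to 1496 in CC. FLT4, F8 and IGFBP3 above were likewise highest in CC1, CC2 and CC3, and the part of vessels in them was not tested.

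Smooth muscle markers had 1 of 12 positive differences (median -0.16, and -0.071 without CC2). MYH11, the smooth muscle myosin, stood at 159, 197, 186, 567 and 242 normalized counts in CI1 to CI5 and at 167, 897, 301, 528 and 176 in CC1 to CC5. CC2, CC4 and CI4 were high, and the difference was -0.47 ± 0.55. Stromal fibroblast markers were balanced, with 11 of 19 positive (median 0.052, -0.015 without CI1, -0.019 without CI2, -0.0098 without CI3, -0.14 without CC4 and -0.27 without CC5). COL1A1, a fibrillar collagen, stood at 215, 435, 493, 238 and 200.4 normalized counts in CI1 to CI5 and at 203, 1048, 596, 130.3 and 75.9 in CC1 to CC5, with CC2 highest and CC5 lowest. LUM, the proteoglycan lumican, differed by 0.58 ± 0.37. COL14A1, another collagen, stood at 2380.3, 1987, 157, 1802 and 2804 normalized counts in CI1 to CI5 and at 3001, 1782, 188, 1264 and 2358 in CC1 to CC5: CI3 and CC3 were both more than 6-fold below every other cyclic library, and the difference was 0.065 ± 0.80.

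Other cell types were sparse or even. Defining genes of erythrocytes were at or near 0 (HBB 0 to 1 reads) and 1 marker of that list passed the filter. Of neutrophils and mast cells 1 marker passed the filter, KIT, with a difference of -0.50 ± 0.57. Among granulosa, cumulus and luteal genes 2 of 7 were positive (median -0.10, 0.064 without CI4 and 0.046 without CC5), and FSHR and LHCGR, the gonadotrophin receptors, were at 0 to 1 reads. Mesothelial genes had 2 of 6 positive (median -0.06, 0.08 without CC1 and 0.032 without CC5), with CALB2 at 0. Of uterine gland genes 3 passed the filter, LTF, ACP5 and FOXA2, and HOXA11 was at 0.

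**Figure D3:**
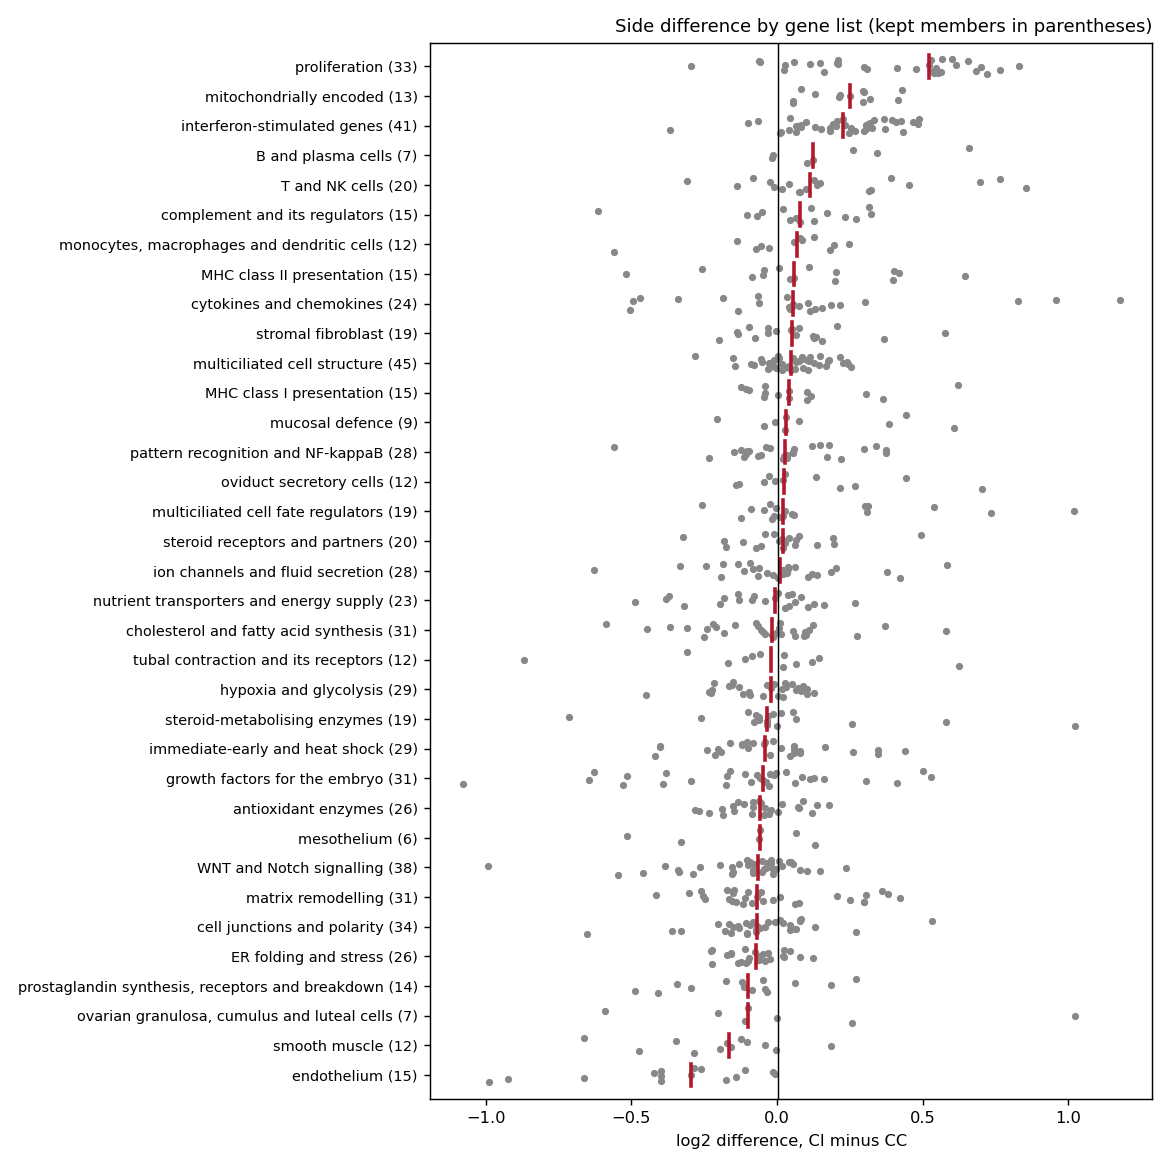
Each grey point is the side difference (log2, CI minus CC) of 1 member of a gene list, red ticks are list medians, and the vertical line is the median of all 14692 features. Lists with at least 5 kept members are shown, from the lowest median (endothelium, -0.30) to the highest (proliferation, 0.52), and most medians lie within 0.1 of 0.

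Among metabolic and stress lists, mitochondrially encoded transcripts had 13 of 13 positive differences (median 0.25). MT-CO1, a subunit of cytochrome c oxidase, stood at 111171, 90526, 411781, 97128 and 101127 normalized counts in CI1 to CI5 and at 132211, 44522, 154756, 193251 and 81823 in CC1 to CC5. CI3 was more than 2-fold above every other library, and without CI3 the median was -0.11 with 3 of 13 positive. Without CC2, the lowest library, it was 0.058. Genes of protein folding in the endoplasmic reticulum had 6 of 26 positive (median -0.071), and 17 of 26 (median 0.038) without CI3. GRP94, a chaperone of that compartment, stood at 4254, 4954, 2556, 5480.2 and 3780.4 normalized counts in CI1 to CI5 and at 4982, 5858, 4886, 3058 and 4063 in CC1 to CC5, with CI3 and CC4 lowest.

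Immediate-early and heat shock genes had 12 of 29 positive differences (median -0.041, 0.019 without CI3, 0.015 without CI4 and 0.029 without CC1). FOS, which rises quickly when cells are disturbed, stood at 42.5, 75.1, 37.8, 50.4 and 30 normalized counts in CI1 to CI5 and at 40.8, 159, 54.7, 60.1 and 39.1 in CC1 to CC5, with CC2 the highest and a difference of -0.42 ± 0.46. CTGF, a matrix-associated target of YAP and TGF-beta, stood at 124, 122, 158, 203 and 117 normalized counts in CI1 to CI5 and at 228, 176, 244, 162 and 147 in CC1 to CC5 and differed by -0.40 ± 0.19. Hypoxia and glycolysis had 13 of 29 positive (median -0.02, 0.10 without CI3, 0.075 without CC2 and 0.028 without CC3), cholesterol and fatty acid synthesis 13 of 31 (-0.017, 0.022 without CI3, 0.027 without CC2 and 0.04 without CC3), antioxidant enzymes 8 of 26 (-0.057, 0.06 without CI3 and 0.071 without CC2), matrix remodelling 11 of 31 (-0.067, 0.0026 without CC2 and 0.04 without CC3) and cell junctions 12 of 34 (-0.07). CLDN12, a tight junction claudin, was the junction gene of smallest p, with 28 to 52.5 normalized counts in CI, 40.8 to 58.4 in CC and a difference of -0.36 ± 0.20.

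**Figure D4:**
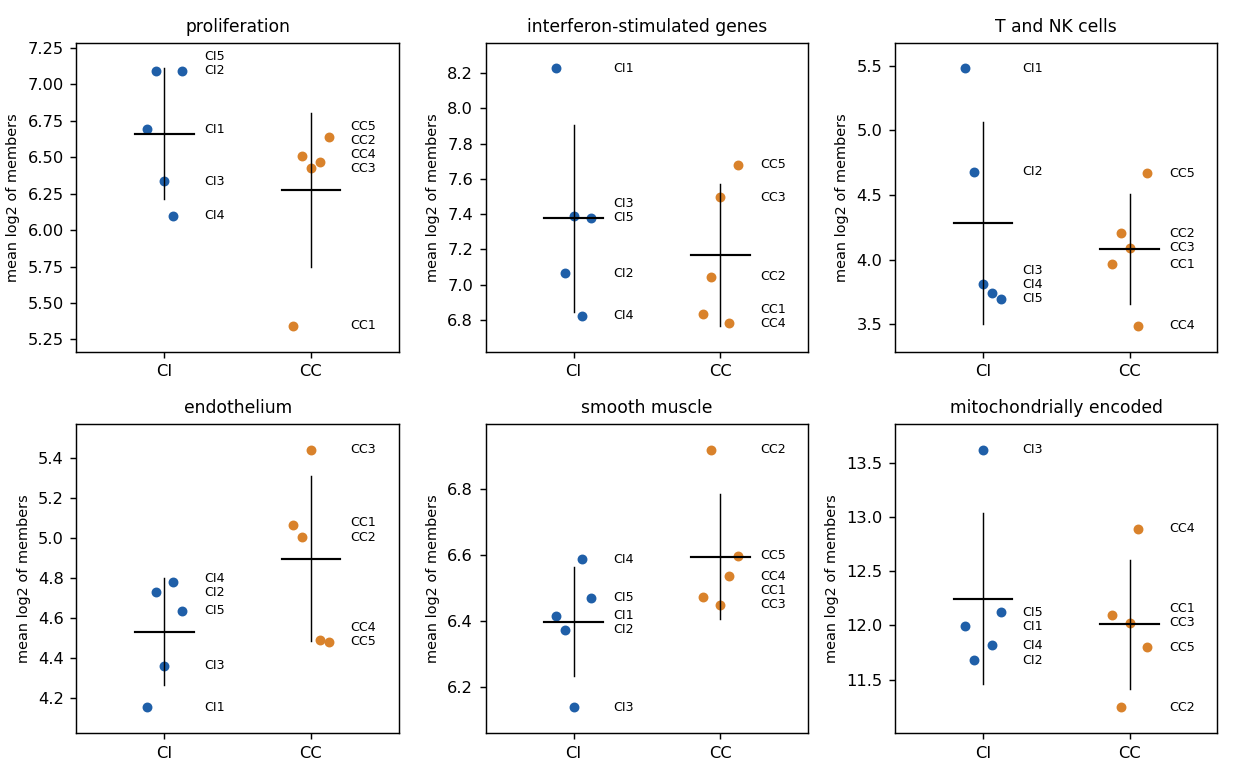
Each point is the list score of 1 library, the mean log2(normalized counts + 3.03) of the kept members, for 6 lists in CI (blue) and CC (orange), with the group mean as a bar and 1 SD as a line. CC1 is lowest for proliferation, CI1 highest for interferon-stimulated genes and T and NK cells, and CI3 highest for mitochondrial transcripts. For endothelium CC1, CC2 and CC3 lie above every CI library, with CC3 highest. For smooth muscle CI1, CI2 and CI3 lie below every CC library, and CC2 is highest.

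The side difference was then compared with that of pregnant mares, which rests on separate libraries. There too 0 features (0%) passed the adjusted limma threshold, with 53 (0.361%) higher and 59 (0.402%) lower in PI without adjustment. Every PI library lay above every PC library in 7 features (0.0476%) and below in 13 (0.0885%). Of the 10 leading genes with a higher level in CI, 7 also had a positive difference in pregnant mares. Of the 10 with a lower level, 7 also had a negative one. Beside these, 44.6% of all features had a positive difference in pregnant mares, so negative ones were the more common there. The test of the difference between statuses called 0 of 14692 features (0%), and 47 (0.32%) had an unadjusted limma p under 0.05. No gene is therefore shown to differ by side in cyclic mares alone.

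Over all features, 6551 of 14692 (44.6%) had a positive difference in pregnant mares, with a median of -0.03, and 20 of the 38 lists had medians of opposite sign in the 2 statuses. Proliferation, the list with the highest cyclic median, was one (0.52 in cyclic and -0.37 in pregnant mares, with 3 of 33 positive in the latter), and interferon-stimulated genes another (0.23 and -0.16, 5 of 41 positive). For endothelium both were negative (-0.30 and -0.24, 4 of 15 positive). These are medians over members, and no test of a list was run.

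Among the genes of smallest p for the difference between statuses, PLCXD3 differed by -0.86 ± 0.37 in cyclic and 0.77 in pregnant mares, and TATDN3, a putative deoxyribonuclease, by 0.39 ± 0.18 and -0.35. TATDN3 stood at 59.9, 59.6, 50.4, 53.6 and 61.1 normalized counts in CI1 to CI5 and at 42.2, 50.6, 42.2, 45.1 and 34.5 in CC1 to CC5, and only CI3 lay below a CC library, CC2. CTGF, in turn, differed by -0.40 and 0.25, and NKG7 by 0.77 and -0.48. The adjusted limma p of the difference was 0.999951 for each of these 4 genes.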

How the data were processed

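The authors deposited 1 table of TMM-normalized counts, a signal per gene in which each library's reads are multiplied by 1 factor, per the file name and its values. Whole reads were recovered from it for 100% of values within 0.01 reads. CASAVA 1.8 is named in the submitters' processing notes. The sources used here do not give the aligner, counter, strand setting or build. The labels' protocols give a stranded total RNA kit with rRNA depletion, while another label gives polyA RNA. Overlapping, antisense and near-identical genes are therefore uncertain.

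Features above 1 CPM in 5 of 20 libraries were fitted with limma 3.58.1 (R 4.3.3, trend and robust moderation) on log2(value + 0.5 CPM, equal to 3.03 normalized counts), as 4 group means, with 2-sided tests and Benjamini-Hochberg adjustment over all 14692. Folds on this scale understate low genes. edgeR 4.0.16 and DESeq2 1.42.0 were run on the recovered reads.

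Named genes are, since none passed, the 10 with a symbol and smallest p per direction, a fixed set, each list's member of smallest p and of highest mean, and the 3 of smallest p between statuses. Others were chosen after their values were seen, and some genes that the rule names are not reported here. Members and lists were chosen with earlier results of these data known. Of the list genes, 844 matched by symbol, 21 by a RefSeq synonym (TB-T2T table, names only) and 135 not. Every pair of cyclic libraries differed beyond counting noise (chi-square divided by its degrees of freedom 12.7 to 158 over 45 pairs).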

Additional observations from a re-analysis of the deposited data

Results flagged for a closer look

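Extreme libraries were looked for in each group of 5 with Dixon's gap test at 95%, over 282 groups of values for named genes, list scores and library measures. It marked 13 of the 282, and chance marks about 1 in 20, so the number marked is near what chance alone would give. The groups are not independent, and some of the genes were named from these same values. Each is given with the values of the other libraries of its group.

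8 are in CI. CI3 was far above the rest for ZNF34 (30.6 normalized counts against 17.6 to 20.3), for MT-CO1 (411781 against 90526 to 111171), for the score of mitochondrially encoded genes (13.6 against 11.7 to 12.1) and for the share of mitochondrial reads (8.62% against 2.37% to 2.97%). The same library was far below the rest for ZNF558 (36.0 against 65.4 to 81.1), COL14A1 (157 against 1802 to 2804) and the prostaglandin list score (5.39 against 5.84 to 6.03). CI1 was far above the rest for CD74 (58488 against 18043 to 19400.0).

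5 are in CC. CC5 was high for PLCXD3 (11.5 against 3.95 to 5.49) and low for PTGES (2.30 against 11.7 to 18.3). CC4 was high for OVGP1 (11.7 against 0 to 1.32). CC1 was low for CENPF (72.5 against 308 to 524) and for the proliferation list score (5.34 against 6.42 to 6.64).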

How the results depend on the processing

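The count of 0 adjusted calls held in all 20 alternatives, with a lowest adjusted p of 0.993329 (limma with library weights), and the difference between statuses had 0 calls in each one where it was run. Counts at an unadjusted p under 0.05 (26 higher, 16 lower, of 14692 features) depended in part on the number of features tested. They were 96 and 72 of 20350 with no filter on low values, and 11 higher of 11862 with a 5 CPM filter. Of the same 14692 they were 10 and 41 without the TMM factor, 275 and 259 with library weights, and 27 lower with DESeq2. Without both cyclic libraries of fewest reads, CI3 and CC4, an alternative chosen after seeing the data, they were 79 and 88. Leaving out 1 library gave 15 to 118 higher and 13 to 106 lower: 118 and 106 without CC4, 66 and 50 without CC5, 44 and 51 without CI2, 44 and 32 without CI4, 44 and 26 without CC2, and 15 higher without CI5 or CC1. The cause was not tested.

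The replicate numbers of cyclic mares did not meet the rule for pairing: deviations of same-numbered libraries correlated at 0.295, 0.679, 0.0228, -0.0408 and 0.621 for numbers 1 to 5, and 6 of 10 libraries correlated best with their own number. With the replicate block, fitted to the 10 cyclic libraries alone, there were 0 adjusted calls and 60 higher and 34 lower without adjustment. The cyclic libraries alone without the block gave 21 higher and 16 lower, also with 0 adjusted calls, so the block changed no call.

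The 20 leading genes kept their sign in each alternative that gave them a value, which the 5 CPM filter did not for 8 of them, and 9 moved by over 1.5 times in some alternative. Of the named genes, DNAH5 (0.16) and CLU (-0.27) changed direction with library weights, where neither passed. Sign changed in 159 of 2035 gene values, with these 2 included. A change of sign smaller than the SE in both fits was not counted as a change of direction. Of 700 list medians, 92 changed sign. Depth limits genes at a few reads per library, such as E2F2, TNFRSF4 and NKG7.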
